A study of Mus musculus with 13 samples.

Results

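The genes described here are 9 markers of the mesenchymal state: the transcription factor genes Prrx1, Twist1, Twist2, Snai1, Snai2, Zeb1 and Zeb2, and the genes of N-cadherin (Cdh2) and vimentin (Vim). They were chosen by name, and each was read from the row of the deposited table whose array annotation gives its symbol alone. Of the 9, 8 have such a row, 1 each, among 14807 genes with rows of this kind. No row is annotated with Twist2 alone, so Twist2 was not analysed here. Values are log2 signal on 13 Affymetrix Mouse Exon 1.0 ST arrays, so a step of 1 is a doubling. The arrays cover induced pluripotent stem (iPS) clones 1, 2, 5 and 6 with 2 arrays each, the embryonic stem (ES) line MPSVII with 2, the ES line B6 Blu with 1, and mouse embryonic fibroblasts (MEF) with 2.

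The clones, MPSVII ES and MEF are labelled C57Bl/6 and B6 Blu ES is labelled C57BL/6NTac. MPSVII, mucopolysaccharidosis type VII, is a lysosomal storage disease of the enzyme beta-glucuronidase. The titles name it for the clones, MEF and MPSVII ES, while the source field of the clones and MEF names wildtype B6 fibroblasts. The clones came from fibroblasts transduced with a lentivirus labelled OSK (Oct4, Sox2 and Klf4), each from a single picked colony, and were grown on layers of MEF feeder cells. Feeder RNA and RNA of the clones cannot be told apart on their arrays. No label gives a batch or says that the 2 arrays of a line came from separate cultures, so p-values measure the spread between these arrays, which may be technical.

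Mesenchymal cells such as fibroblasts are loosely attached and mobile, and epithelial cells are held in sheets by E-cadherin (Cdh1). The Snail (Snai1, Snai2), Zeb and Twist proteins are transcription factors that repress E-cadherin and other epithelial genes, and cells that gain them pass through an epithelial-to-mesenchymal transition. Reprogramming of fibroblasts with Oct4, Sox2 and Klf4 is known to run through the reverse step, in which these factors fall and epithelial genes rise.

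Snail and Zeb proteins bind the hexamer CACCTG, a form of the E-box CANNTG. The 250 bases upstream of the RefSeq start (GRCm38.p6) are shown for 4 of the 8 genes and for Epcam, an epithelial gene described further on, because these factors act on such promoters. Capitals mark CACCTG or its reverse complement CAGGTG, and both strands were searched.
Snai1, chr2:167537945-167538194, + strand: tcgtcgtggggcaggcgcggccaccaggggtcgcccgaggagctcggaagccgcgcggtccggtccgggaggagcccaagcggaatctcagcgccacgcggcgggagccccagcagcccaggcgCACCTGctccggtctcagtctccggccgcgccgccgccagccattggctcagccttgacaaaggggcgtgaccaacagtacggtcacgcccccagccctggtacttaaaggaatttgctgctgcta
Epcam, chr17:87635729-87635978, + strand: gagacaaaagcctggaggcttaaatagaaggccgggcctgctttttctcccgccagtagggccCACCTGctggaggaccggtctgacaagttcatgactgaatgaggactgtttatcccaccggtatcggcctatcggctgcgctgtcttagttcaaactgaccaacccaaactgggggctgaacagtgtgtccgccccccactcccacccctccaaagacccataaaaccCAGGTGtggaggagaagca
Twist1, chr12:33957421-33957670, + strand: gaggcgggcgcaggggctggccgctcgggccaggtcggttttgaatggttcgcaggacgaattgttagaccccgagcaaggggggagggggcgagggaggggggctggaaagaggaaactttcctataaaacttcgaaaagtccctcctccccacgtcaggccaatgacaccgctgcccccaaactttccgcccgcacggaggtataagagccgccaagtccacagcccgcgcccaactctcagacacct
Vim, chr2:13574061-13574310, + strand: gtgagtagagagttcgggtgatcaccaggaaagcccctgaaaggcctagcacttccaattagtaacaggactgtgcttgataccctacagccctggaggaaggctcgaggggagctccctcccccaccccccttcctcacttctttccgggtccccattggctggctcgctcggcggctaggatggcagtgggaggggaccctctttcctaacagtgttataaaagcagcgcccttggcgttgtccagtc
Zeb2, chr2:45117443-45117692, - strand: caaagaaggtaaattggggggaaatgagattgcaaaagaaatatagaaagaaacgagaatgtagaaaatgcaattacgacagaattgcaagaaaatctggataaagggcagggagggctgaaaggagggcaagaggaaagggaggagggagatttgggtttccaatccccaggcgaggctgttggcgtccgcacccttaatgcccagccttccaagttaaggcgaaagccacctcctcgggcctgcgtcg
The Snai1 window holds 1 copy, at -126 counted from the start, and the Epcam window 2, at -187 and -19. The Twist1, Vim and Zeb2 windows shown hold none. Among windows not shown, those of Prrx1 and of other Zeb2 starts hold none. For the epithelial gene Ocln 1 window holds 2 copies and another holds none. No Cdh1 window is shown, so these windows do not compare epithelial with mesenchymal genes. Of 32851 windows of this length, 17.2% hold CACCTG on either strand and 66.2% hold CANNTG. A match is a description of letters and not a binding site.

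The labelled cell types were first set against marker genes. The mean log2 signal of 8 pluripotency markers lay between 7.69 and 8.66 on the clone arrays, at 8.79 on both MPSVII ES arrays and at 7.97 on the B6 Blu ES array, against 3.74 and 3.79 on the MEF arrays. For 9 fibroblast markers these means were 3.83 to 4.47 in the clones, 4.10 and 4.12 in MPSVII ES, 4.62 in B6 Blu ES, and 6.44 and 7.02 in MEF. The 9 macrophage markers averaged 3.87 to 4.23 in the clones, 4.03 on both MPSVII ES arrays and 3.90 in B6 Blu ES, against 9.07 and 9.41 in MEF. All 9 were called lower in the clones than in MEF. Each MEF array thus carried both fibroblast and macrophage markers, and the part of macrophage RNA in the MEF values below was not tested. The 7 extraembryonic endoderm markers averaged 3.52 to 3.80 in the clones, 3.65 and 3.78 in MPSVII ES and 3.81 in B6 Blu ES, against 4.81 and 5.10 in MEF. In MEF 2 of the 7 stood out, Dab2 at 9.48 and Pdgfra, also a fibroblast marker, at 5.79. Gata4, Gata6, Sox17 and Foxa2 averaged 4.25, 5.02, 3.15 and 3.84 there, close to the other lines. Sox7 averaged 3.18 in MEF, above the clone arrays (2.02 to 2.98), MPSVII ES (2.76) and B6 Blu ES (2.46). Endothelial, neural and mesoderm lists averaged between 3.04 and 4.17 on every array. RMA, the authors' normalization, left the arrays with interquartile ranges of log2 signal from 1.70 (clone 2) to 2.83 (MEF).

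The comparison of the clones with MEF asks how far the mesenchymal factors were lost on reprogramming. Prrx1, Snai2, Vim, Zeb2 and Cdh2 fell, with log2 differences between -5.25 and -3.14, and so did Zeb1 (-1.74) and Twist1 (-1.52). Snai1 did not pass the test. The tests came from limma, with 1 mean per line over 13 arrays and Benjamini-Hochberg adjustment over 16661 rows, and a gene was called at an adjusted p under 0.05. Of the 8 genes, 7 were called lower and 0 higher, and the same 7 did not overlap between 8 clone and 2 MEF arrays. Over all rows 27.0% were called lower and 7.78% higher, and 26.1% were lower without overlap. The median difference of the 8 genes was -3.25, beside -0.09 over all rows.

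Prrx1 encodes a homeodomain factor of limb and facial mesenchyme. Its lowest, median and highest log2 signals on the clone arrays were 3.23, 3.84 and 4.11, against 9.09 and 8.96 on the MEF arrays. All clone arrays were low and both MEF arrays high, with a wide gap between them. The difference was -5.25 ± 0.20 (SE; adjusted p = 2.66e-08), a 38.0-fold lower signal. Twist1 encodes a basic helix-loop-helix (bHLH) factor of head mesenchyme and neural crest. Its signals were 3.38, 3.84 and 4.37 on the clone arrays, against 5.64 and 5.02 in MEF. The groups did not overlap, and the gap was the narrowest among the 7 genes that fell (-1.52 ± 0.25, adjusted p = 0.000684).

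Of the 2 Snail genes, Snai2 was called lower and Snai1 was not called. Snai2, known as Slug, had log2 signals of 4.05, 4.65 and 5.12 (lowest, median and highest) on the clone arrays, against 8.29 and 8.66 in MEF. Its difference of -3.84 ± 0.20 (adjusted p = 1.6e-07) is a 14.3-fold lower signal. Snai1, a repressor needed at gastrulation, had 2.25, 2.77 and 3.78 on the clone arrays, against 2.47 and 2.04 in MEF. The MEF arrays lay at the low end of the clone arrays and the groups overlapped. The difference was 0.59 ± 0.28 (95% interval -0.04 to 1.22, adjusted p = 0.142). Each line mean of Snai1 lay under 4.17, the median of all tested values. On the 2 MEF arrays the Snai1 signal stood at the 12.8 and 5.2 percentiles of the array. It was thus near the low end of signal, where a fall from MEF could hardly show. The Snai1 difference passed the test in 2 of 23 other settings, at 0.73 without clone 2 replicate 2 (adjusted p = 0.0299) and at 0.85 after median centring (adjusted p = 0.0144).

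Both Zeb genes, which encode zinc finger homeobox repressors, were lower in the clones. Zeb2 had log2 signals of 4.23, 4.52 and 4.69 (lowest, median and highest) on the clone arrays, against 7.63 and 8.08 in MEF. The clone arrays lay close together and stood far below MEF, at -3.36 ± 0.17 (adjusted p = 1.25e-07). Zeb1 had 4.10, 4.42 and 5.04 on the clone arrays, against 6.23 and 6.24 in MEF. The 2 groups did not overlap, and the difference was -1.74 ± 0.23 (adjusted p = 0.000132). After quantile normalization the difference of Zeb1 was -1.10, still past the test (adjusted p = 0.00155). Macrophages are known to express Zeb2, and their markers were high on the same MEF arrays.

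Cdh2 and Vim encode the structural proteins of the group, an adhesion molecule of mesenchymal and neural cells and the intermediate filament of fibroblasts. Cdh2 had log2 signals of 3.06, 3.39 and 3.76 (lowest, median and highest) on the clone arrays, against 7.11 and 5.95 in MEF. The MEF arrays differed from each other by more than 1 unit, yet both lay above every clone array (-3.14 ± 0.26, adjusted p = 3.93e-06). Vim had 6.47, 7.24 and 8.22 on the clone arrays, against 10.91 and 10.84 in MEF. Its difference of -3.53 ± 0.25 (adjusted p = 1.24e-06) is an 11.6-fold lower signal. Macrophages also express vimentin, as do many other cell types.

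**Figure D1:**
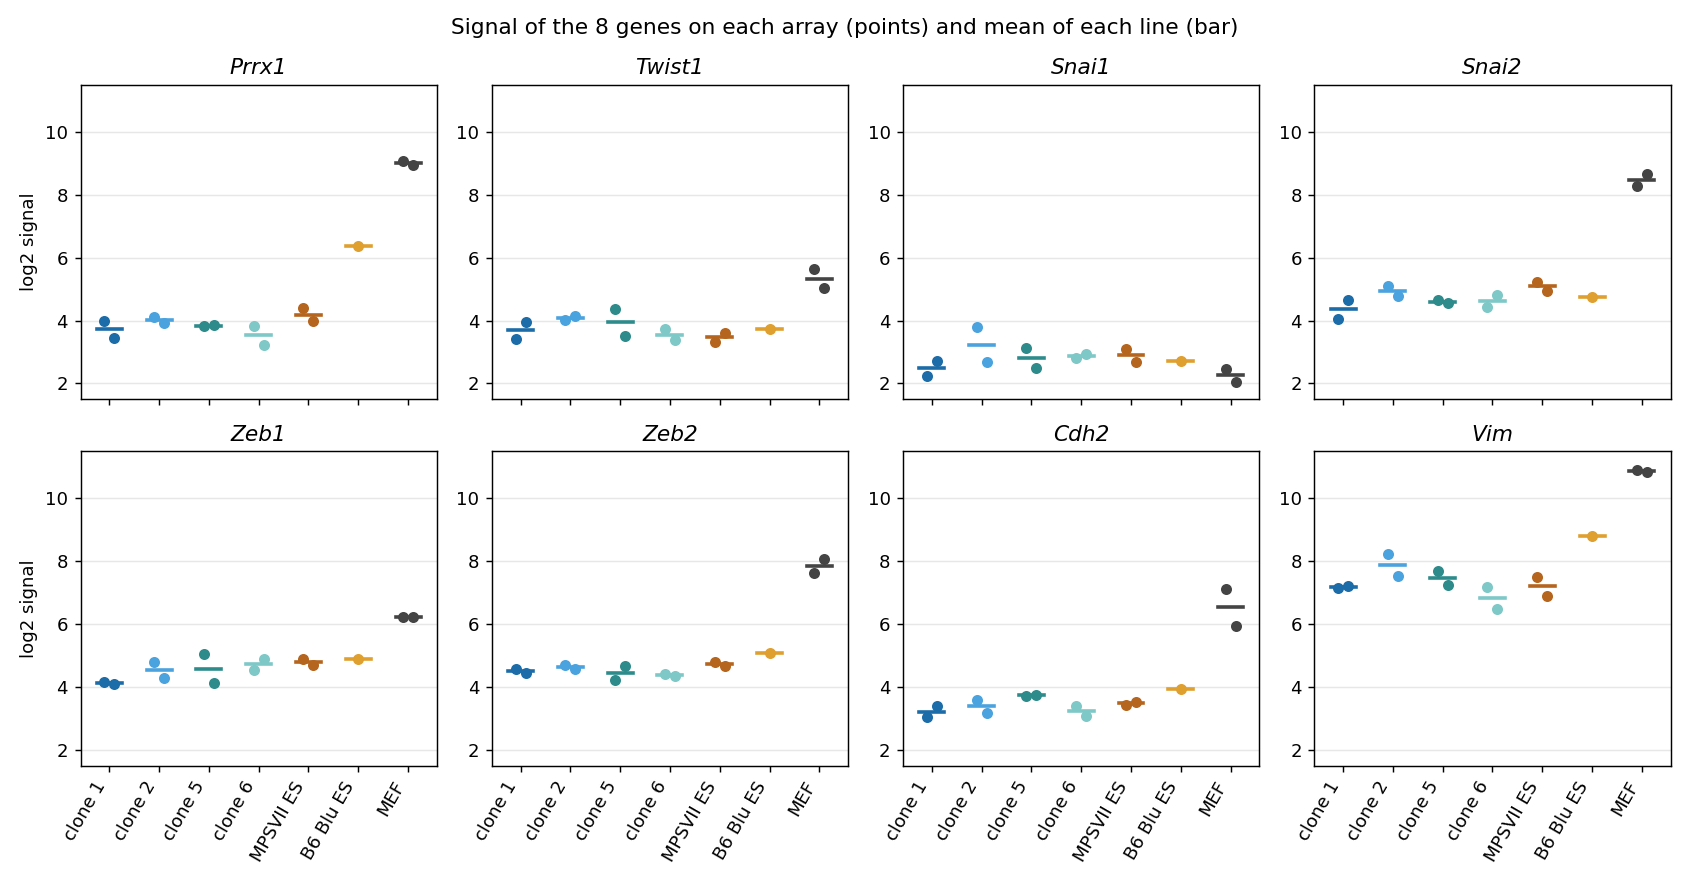
Log2 signal (vertical axis) of the 8 genes on each array (points), by line, with line means as bars. Both MEF arrays lie above all others for 7 genes and not for Snai1, and the single B6 Blu ES array stands out at 6.37 for Prrx1 and 8.79 for Vim.

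MPSVII ES and B6 Blu ES were set against MEF in the same way, to show the level of these genes in ES cells that were never fibroblasts. In both ES lines the same 7 genes were called lower and 0 of 8 higher, with Snai1 not called. Over all rows 20.0% were called lower and 6.70% higher in MPSVII ES than in MEF, and 18.0% lower and 3.30% higher in B6 Blu ES. The median difference of the 8 genes was -3.08 in MPSVII ES minus MEF and -2.34 in B6 Blu ES minus MEF. All 3 comparisons subtract the same MEF arrays, so their agreement is not independent.

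On the MPSVII ES arrays Prrx1 had log2 signals of 4.38 and 3.998, -4.83 ± 0.26 relative to MEF (adjusted p = 5.09e-07). Snai2 had 5.22 and 4.95 (-3.39 ± 0.25, adjusted p = 3.73e-06), and Zeb2 had 4.81 and 4.68 (-3.11 ± 0.21, adjusted p = 2.19e-06). For all 3 genes replicate 1 lay just above the range of the clone arrays and replicate 2 within it. Twist1 had 3.33 and 3.62 (-1.86 ± 0.32, adjusted p = 0.00126) and Zeb1 4.89 and 4.70 (-1.43 ± 0.29, adjusted p = 0.00359). After quantile normalization the Zeb1 difference was -0.90 (adjusted p = 0.0228). Cdh2 had 3.42 and 3.53 (-3.05 ± 0.33, adjusted p = 4.81e-05) and Vim 7.50 and 6.90 (-3.67 ± 0.32, adjusted p = 9.77e-06). Snai1 had 3.09 and 2.70, both above the MEF arrays, without passing the test (0.64 ± 0.36, adjusted p = 0.247).

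The B6 Blu ES array gave a log2 signal of 6.37 for Prrx1, between the other pluripotent arrays and MEF (-2.65 ± 0.32 relative to MEF, adjusted p = 0.000209). Vim was likewise intermediate, at 8.79 (-2.08 ± 0.39, adjusted p = 0.00305). Snai2 at 4.76, Zeb2 at 5.07 and Cdh2 at 3.94 were called lower than MEF, by differences of -3.71, -2.78 and -2.59 log2 units. Twist1 at 3.72 (-1.61, adjusted p = 0.0132) and Zeb1 at 4.88 (-1.35, adjusted p = 0.0198) were called too. The Twist1 call was lost without MEF replicate 1 (-1.30, adjusted p = 0.0781). The Zeb1 call was lost without MEF replicate 1 (adjusted p = 0.0682), without MEF replicate 2 (adjusted p = 0.0525) and after quantile normalization (-0.70, adjusted p = 0.143). Snai1 stood at 2.70 (0.45 ± 0.44, adjusted p = 0.566). B6 Blu ES has no second array, so its spread was taken from the other lines.

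**Figure D2:**
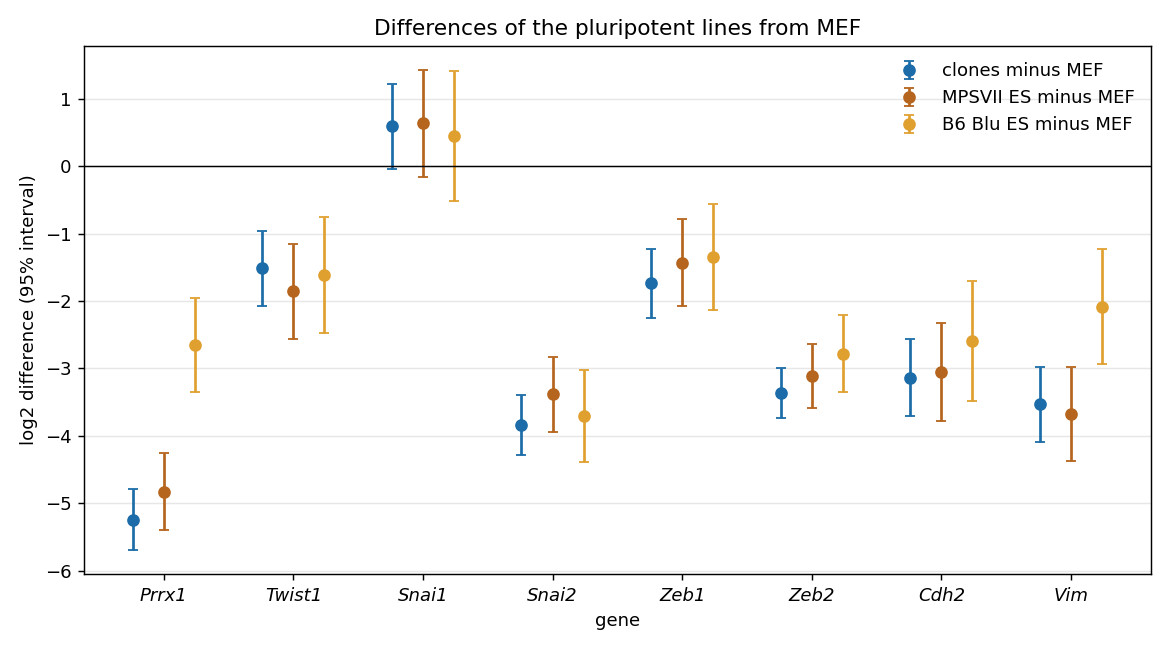
Log2 difference from MEF (vertical axis) of each gene in the mean of the 4 clones, in MPSVII ES and in B6 Blu ES, with 95% intervals from limma as bars. The intervals of 7 genes lie below 0 in all 3 comparisons and those of Snai1 include it. Prrx1 and Vim are less far below 0 in B6 Blu ES (-2.65 and -2.08) than in the clones (-5.25 and -3.53).

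The clones were then set against MPSVII ES, the comparison that the series' design text names. Here 0 of 8 genes passed limma's test, with 1 at an unadjusted p under 0.05, beside 1.04% of all rows called in either direction. That gene was Snai2, at -0.45 ± 0.20 (95% interval -0.89 to -0.01, adjusted p = 0.398). Prrx1 differed by -0.42 (95% interval -0.87 to 0.03), Zeb1 by -0.31 (-0.81 to 0.20) and Zeb2 by -0.25 (-0.62 to 0.12). Vim differed by 0.14 (-0.41 to 0.69), Cdh2 by -0.08 (-0.66 to 0.49), Twist1 by 0.34 (-0.22 to 0.90) and Snai1 by -0.05 (-0.67 to 0.58). Among the 8 genes the intervals reach no farther than 0.90 log2 units from 0, and they do not show equality.

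Each clone was also compared with MPSVII ES alone. No gene of the 8 was called in clone 1, 2, 5 or 6 by limma, and 2, 0, 0 and 1 of them had an unadjusted p under 0.05. In either direction 1.08% of all rows were called in clone 1, 5.90% in clone 2, 1.78% in clone 5 and 0.0480% in clone 6. The differences nearest to a call were Snai2 in clone 1 (-0.73 ± 0.25, adjusted p = 0.244) and Vim in clone 2 (0.67 ± 0.32, adjusted p = 0.257). Against MEF, 7 of the 8 genes were called lower in each of the 4 clones, beside 20.0%, 28.0%, 22.4% and 21.2% of all rows in clones 1, 2, 5 and 6. Snai1 came closest in clone 2 (0.98 ± 0.36, adjusted p = 0.0596).

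Among the 4 clones themselves limma's F test called 0 of the 8 genes, with 1 at an unadjusted p under 0.05, beside 9.01% of all rows. That gene was Vim, with clone means of 7.20 (clone 1), 7.87 (clone 2), 7.47 (clone 5) and 6.83 (clone 6). Its range of 1.04 log2 units did not pass the adjusted test (adjusted p = 0.202), except after the intensity-dependent normalization (adjusted p = 0.0389). Of the 4 clones, clone 2 also had the highest mean of Prrx1, Twist1, Snai1, Snai2 and Zeb2, with ranges among clones between 0.25 and 0.75 log2 units. None of these ranges passed (adjusted p from 0.484 to 0.886). The arrays of clone 2 had the narrowest spread of signal of all lines, and its part in these orders was not tested.

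The lines were then ordered by their means, and neighbours were read against the residual SD of the gene. That SD is the spread of single arrays, so it is a scale for the gaps and not a test of them. For Prrx1 the clones lay at 3.53 to 4.01, MPSVII ES at 4.19, B6 Blu ES at 6.37 and MEF at 9.02. Neighbours from clone 6 up to MPSVII ES were at most 0.19 log2 units apart, within the residual SD of 0.27, and the steps above it, 2.18 and 2.65, were not. For Vim (residual SD 0.36) the clones lay at 6.83 to 7.87 with MPSVII ES among them at 7.20, B6 Blu ES at 8.79 and MEF at 10.88. The step between clone 2 and B6 Blu ES was 0.92, and the gaps between clones 2 and 5 (0.395) and between clones 1 and 6 (0.365) were also above the residual SD. Zeb2 and Cdh2 had B6 Blu ES second to MEF, at 5.07 and 3.94. Its gap to the next line was 0.33 for Zeb2, above the residual SD of 0.19, and 0.20 for Cdh2, below the residual SD of 0.38. For Snai2 and Twist1 the 6 pluripotent lines stood together below MEF, at 4.35 to 5.09 and 3.47 to 4.07, with no gap between neighbours above the residual SD. For Zeb1, at 4.12 to 4.88, the only such gap set clone 1 below the others by 0.42. Limma's F test did not call Zeb1 among the clones (adjusted p = 0.568). Snai1, low on all arrays, had its highest mean in clone 2 (3.23) and its lowest in MEF (2.26), with no gap above its residual SD of 0.43.

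The clones and MPSVII ES thus each differed in Prrx1 from the single B6 Blu ES array, and not by a call from each other. The clones stood at -2.59 ± 0.27 log2 units relative to B6 Blu ES (adjusted p = 0.003), and this call held in all 22 other settings. MPSVII ES stood at -2.18 ± 0.32 (adjusted p = 0.0233), and the adjusted p lay between 0.00735 and 0.139 over 22 other settings, 16 of which kept the call. The call was lost without either array of clone 5 (adjusted p = 0.0509 each), without MPSVII ES replicate 1 (-2.37, adjusted p = 0.0906) or replicate 2 (-1.98, adjusted p = 0.139). It was also lost when only these 2 lines were fitted (adjusted p = 0.0881) and when all rows of the table were tested (adjusted p = 0.0857). Prrx1 was the 1 gene of the 8 called in each of these comparisons. Over all rows 0.0780% were called lower in the clones than in B6 Blu ES, and 0.0720% in MPSVII ES.

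Vim did not pass in either comparison. It differed by -1.45 ± 0.33 between the clones and B6 Blu ES (adjusted p = 0.12) and by -1.59 ± 0.39 between MPSVII ES and B6 Blu ES (adjusted p = 0.16). No array of the clones or of MPSVII ES reached the B6 Blu ES signal of Vim or Prrx1. Zeb2 at -0.58 ± 0.23 and Cdh2 at -0.54 ± 0.35 were also lower on every clone array than in B6 Blu ES, without passing (adjusted p = 0.413 and 0.687). In all, 4 of the 8 genes were lower without overlap in the clones than on that 1 array, beside 13.3% of all rows. Snai2 (-0.13 ± 0.27), Zeb1 (-0.39 ± 0.31), Twist1 (0.10 ± 0.34) and Snai1 (0.14 ± 0.38) overlapped with it.

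**Figure D3:**
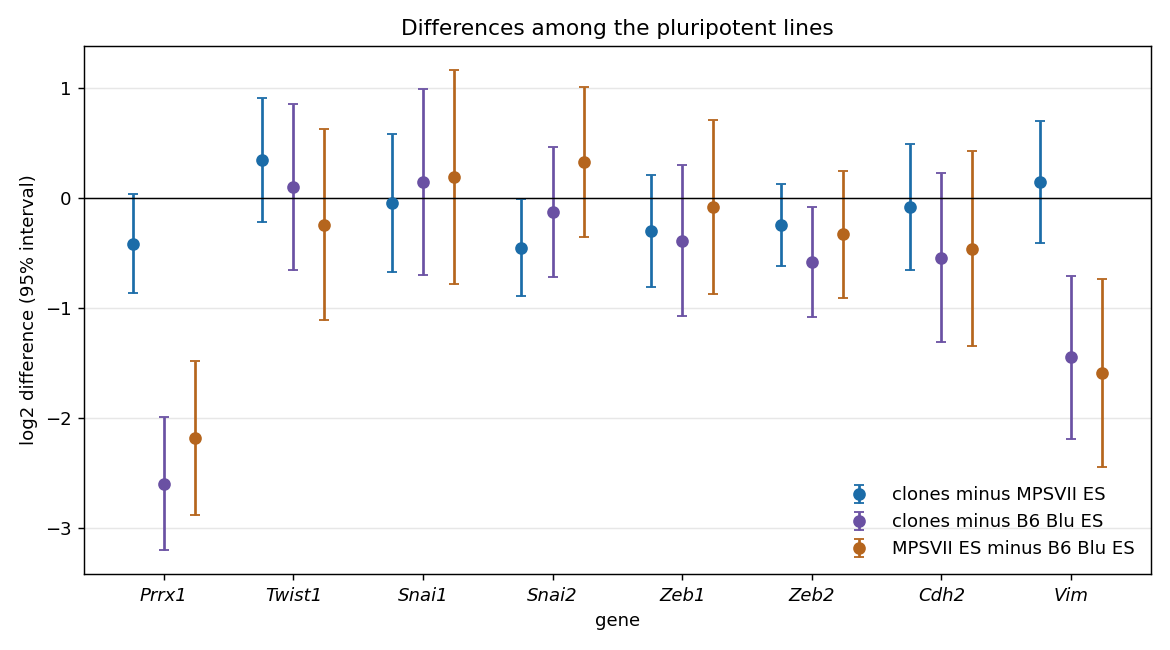
Log2 differences (vertical axis) of each gene between the clones and MPSVII ES, the clones and B6 Blu ES, and the 2 ES lines, with 95% intervals from limma as bars. Prrx1, at -2.59 and -2.18 relative to B6 Blu ES, lies farthest from 0, followed by Vim at -1.45 and -1.59.

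Some fibroblast genes differed from B6 Blu ES in the direction of Prrx1 and others did not. Of 18 mesenchymal effector genes, 3 were called lower in MPSVII ES than in B6 Blu ES (0.0720% of all rows) and 1 in the clones (0.0780% of all rows). The medians of the 18 genes were -0.60 and -0.68, beside 0.02 and -0.01 over all rows. Under quantile, median and intensity-dependent scaling 5, 3 and 4 were called lower in the clones, beside 107, 36 and 65 of 16661 rows. In MPSVII ES it was 4 under each scaling, beside 77, 33 and 51 rows. Of 9 fibroblast markers, Thy1 was the 1 called in each comparison. The 2 lists share genes, and Thy1 is in both, so its calls are counted in each. Between MPSVII ES and B6 Blu ES, several genes of these lists lay in the direction of Prrx1 without passing. Among them were Postn (-1.71), Cdh11 (-1.07), Col1a2 (-0.84), Lum (-0.80), Col3a1 (-0.72) and Col1a1 (-0.48). Tagln and Axl were further such genes. Relative to MEF, Tagln stood at -4.79 in MPSVII ES and -2.45 in B6 Blu ES, and Axl at -2.11 and -1.39. The differences of the receptor genes Pdgfra (-0.07) and Pdgfrb (-0.01) and the protease gene Fap (-0.20) were near 0, as was the matrix gene Sparc (-0.11). Dcn, which encodes the matrix protein decorin, stood at 1.21 (adjusted p = 0.3) and the fibronectin gene Fn1 at 0.22 (adjusted p = 0.936), opposite in sign to Prrx1. Dcn was also the 1 fibroblast marker called lower in the clones than in MPSVII ES, beside 120 of 16661 rows. Its clone arrays lay at 3.91 to 4.78, against a mean of 6.05 in MPSVII ES. Thy1, a surface protein of fibroblasts, had log2 signals of 6.18, 6.39 and 7.49 (lowest, median and highest) on the clone arrays and 5.96 and 5.94 in MPSVII ES, against 8.62 in B6 Blu ES. It was called in both comparisons (adjusted p = 0.0362 for the clones and 0.0233 for MPSVII ES), and it lost the call in 9 of 12 fits without 1 array for the clones and in 2 for MPSVII ES. Acta2, smooth muscle actin, stood at -4.78 ± 0.49 (adjusted p = 0.00459) in MPSVII ES relative to B6 Blu ES. S100a4, a calcium-binding protein of mobile cells, stood at -4.003 ± 0.62 there (adjusted p = 0.0357). In the clones relative to B6 Blu ES, Acta2 stood at -2.50 ± 0.43 and S100a4 at -2.88 ± 0.54. Neither passed limma's test there (adjusted p = 0.0556 and 0.0724), and both passed under all 3 scalings. Acta2 was also higher in the clones than in MPSVII ES (2.28 ± 0.32, adjusted p = 0.0128), a call lost without either MPSVII ES array (adjusted p = 0.24 and 0.123). Thy1, S100a4, Pdgfra, Pdgfrb, Fap, Sparc, Dcn, Fn1, Col1a1, Col1a2, Col3a1, Lum, Tagln and Axl were named after their values were seen. S100a4 lost its call between MPSVII ES and B6 Blu ES in 8 of the 12 fits. The macrophage markers, at 3.90, were not raised on the B6 Blu ES array. Whether fibroblast RNA on that array gave its Prrx1 signal was not tested.

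The genes whose line means ran most like those of each member were sought among 1943 single-gene rows with a span of at least 2 log2 units, by Pearson's r over 7 line means. For Prrx1 they were Rgs16 (r = 0.997), the hyaluronan receptor gene Cd44 (0.996) and Slc25a24 (0.993). Genes picked in this way share the intermediate B6 Blu ES value of Prrx1 by their selection. Cd44 averaged 4.21 to 4.48 in the clones and 4.51 in MPSVII ES, with 5.72 in B6 Blu ES and 7.22 in MEF. For Vim they were Gng11 (0.995), Il13ra1 (0.994) and the annexin gene Anxa1 (0.991), with Anxa1 at 7.585 in B6 Blu ES against 11.03 in MEF.

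For Snai2 the closest were Cd180, Sirpa and Mecom (r from 0.997 to 0.998), and Cd180 and Sirpa encode surface receptors of myeloid cells. For Zeb1 they were Cd300lb, another myeloid receptor gene, S1pr1 and Snx9 (0.992, 0.990 and 0.981). For Zeb2 they were Fbln2, a matrix gene, Osmr and B4galt1 (at least 0.998), and for Cdh2 Ecrg4, Pcdhb16 and Bag3 (0.996 to 0.997). Twist1 ran with Zdhhc9, AI504432 and Fundc1 (0.987 to 0.992). Snai1 had lower values, 0.950 with Pramel7, 0.920 with Olfr510 and 0.906 with the germ cell gene Dazl, whose means were highest in clone 2. These r values describe 7 points, of which MEF stands apart for most genes.

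The wider set of genes around these factors was read in the clones against MEF. Of 18 mesenchymal effector genes all 18 fell, with a median of -2.67 beside -0.09 over all rows and 27.0% of all rows called lower, and 16 fell under each of 3 other scalings. Postn, the matrix gene of periostin, fell by 6.04 ± 0.36 log2 units, Cdh11, a cadherin of mesenchymal cells, fell by 5.44 ± 0.26 and Acta2 fell by 5.34 ± 0.32. On the arrays Cdh11 had log2 signals of 4.13, 4.59 and 5.82 (lowest, median and highest) in the clones, against 10.33 and 10.24 in MEF. Of the 24 genes with a row on a list of other mesenchymal transcription factors, 6 fell, 0 rose and 18 did not pass. The share that fell was near the 27.0% of all rows called lower. This list also held Klf4, a factor labelled on the lentivirus, which did not pass (-0.39 ± 0.26, limma, adjusted p = 0.309). Whether the lentivirus changed its signal was not tested. The median of -0.34 was -0.08 after quantile and median scaling and -0.10 after the intensity-dependent one. Gli3, a transcription factor of hedgehog signalling, fell by 2.02 ± 0.22, Prrx2, the paralogue of Prrx1, fell by 1.75 ± 0.23, and the tendon factor gene Scx fell by 1.70 ± 0.36. The Scx call was lost without MEF replicate 2 (-1.24, adjusted p = 0.0686).

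Twist proteins pair with E proteins, and Id proteins take those partners away. Of 7 such genes 5 fell and 0 rose, beside 27.0% and 7.78% of all rows, with a median of -1.97 (-1.29 after quantile normalization, with 4 called lower). Id3 fell by 3.23 ± 0.30, Id2 fell by 2.20 ± 0.16 and the E protein gene Tcf4 fell by 2.29 ± 0.23. Thus both partners and inhibitors of Twist were among the genes that fell. Of 14 genes of TGF-beta signalling, a known inducer of Snail and Zeb genes, 12 fell and 0 rose, beside 27.0% and 7.78% of all rows (median -1.10). After quantile normalization 10 fell and the median was -0.69. The largest falls were in Ltbp1, a binding protein of the latent ligand (-2.54 ± 0.24), the ligand gene Tgfb3 (-2.40 ± 0.23) and the receptor gene Tgfbr1 (-2.16 ± 0.18).

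Corepressors and regulators of Snail and Zeb proteins moved in both directions. Of 13 such genes 3 rose, 4 fell and 6 did not pass, beside 7.78% of all rows called higher and 27.0% lower, so the share that fell was near that of all rows. Ezh2 and Suz12, subunits of Polycomb repressive complex 2, rose by 2.48 ± 0.17 and 1.53 ± 0.14, and Sin3a rose by 0.70 ± 0.21. Gsk3b, a kinase that marks Snail for breakdown, fell by 2.20 ± 0.20, Rcor1 fell by 1.53 ± 0.28 and Lats2 fell by 1.27 ± 0.22. After quantile normalization 5 of the 13 rose and 3 fell. The median of this list was -0.31, and 0.21, -0.05 and 0.02 after quantile, median and intensity-dependent scaling, so the list as a whole has no fixed sign. The Sin3a call was lost without either MEF array (0.87 without replicate 1 and 0.54 without replicate 2) and in limma with array weights (adjusted p = 0.051).

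Epithelial genes that these factors repress were read last. Of 26 with a row, 9 were called higher in the clones than in MEF and 0 lower, beside 7.78% and 27.0% of all rows, with a median of 0.40. Under quantile, median and intensity-dependent scaling 16, 19 and 16 of them rose and 0 fell, while 3333, 3472 and 2824 of 16661 rows rose. Epcam, an epithelial adhesion molecule, had log2 signals of 7.20, 8.28 and 8.68 (lowest, median and highest) on the clone arrays, against 2.20 and 2.73 in MEF (5.64 ± 0.20, adjusted p = 1.58e-08). Cdh1 had 5.08, 6.54 and 7.18 on the clone arrays, against 3.94 and 4.20 in MEF (2.18 ± 0.23, adjusted p = 2.2e-05). Esrp1, a splicing factor of epithelial cells, rose by 1.94 ± 0.22. Ocln, a tight junction gene, rose by 0.54 ± 0.16 (adjusted p = 0.0197), a call lost without either MEF array (adjusted p = 0.0747 without replicate 1 and 0.126 without replicate 2). With line means as samples, where MEF has 1 value, the calls of Cdh1, Esrp1, Ocln, Suz12, Sin3a, Scx, Acta2 and Ctnnb1 were lost.

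Cadherins and intermediate filaments place Cdh2 and Vim beside their relatives. Among 14 cadherin and catenin genes other than Cdh2, the clones were higher than MEF in 1 and lower in 7 (1 and 5 after quantile normalization, 3 and 3 after median centring), beside 7.78% and 27.0% of all rows. The gene that rose was Cdh1, and Cdh11 fell most. The catenin genes Ctnnd1 and Ctnnb1, whose proteins bind cadherin tails, changed by -1.33 ± 0.19 and -1.09 ± 0.35. The Ctnnb1 call was lost without clone 1 replicate 1 (-1.01), clone 5 replicate 2 (-1.03) or MEF replicate 1 (-0.70), and after quantile normalization (-0.47) and median centring (-0.82). It was also lost with array weights (adjusted p = 0.0533), with line means as samples (adjusted p = 0.154) and over all rows of the table (adjusted p = 0.0658). Of 7 filament genes related to Vim or binding it, 3 fell, beside 27.0% of all rows, namely Nes (nestin, -1.64 ± 0.24), Lmna (lamin A/C, -1.37 ± 0.20) and the linker gene Plec (-0.89 ± 0.16).

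**Figure D4:**
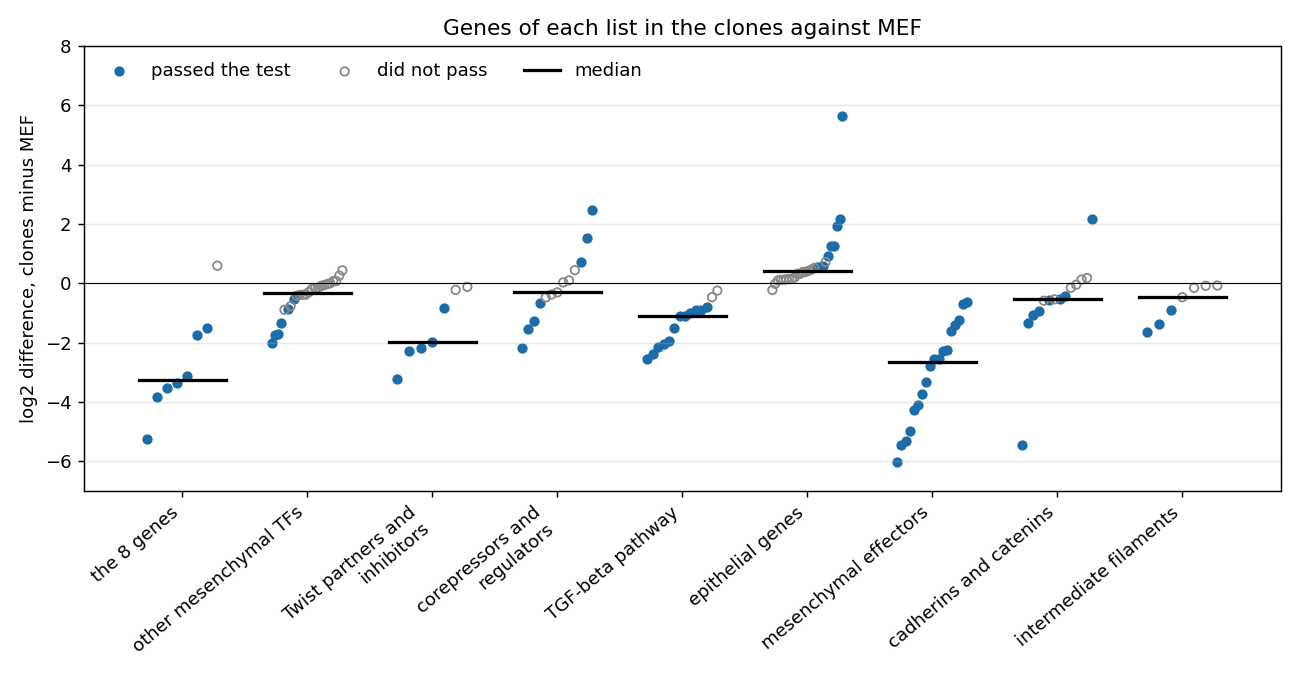
Log2 difference of the clones from MEF (vertical axis) for each gene of the lists, filled where it passed the test, with list medians as bars. The 8 genes (median -3.25) and the mesenchymal effectors (median -2.67) lie lowest, and the epithelial genes (median 0.40) reach highest, with Epcam at 5.64.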

How the data were processed

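RNA of 13 cell samples was amplified and labelled as cDNA with biotin, per the labels' protocols, and measured on exon arrays. The deposited values are log2 signal, made by the authors with Affymetrix Expression Console and RMA per the submitters' processing notes, with versions and build not given in the sources used here. Of 23238 rows, a block of 6577 low row numbers without a gene annotation was left out as controls, and 16661 were tested. Differences were fitted with limma 3.58.1 in R 4.3.3 (lmFit, eBayes, 1 mean per line, clones weighted equally) with Benjamini-Hochberg adjustment. Errors after ± are limma's standard errors. Residual degrees of freedom were 6 and prior ones 4.53, and the number of arrays limits the precision. The model was also run on simulated data with independent normal noise, which cannot show how it handles effects shared by an array. List genes with several rows were read from the row of highest mean.

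The members and lists were chosen with earlier results of these data known. Named were the members, up to 3 genes of each list with the largest rise and fall among those called in the clones minus MEF, Cdh1, Epcam and Ocln, and the 3 genes most like each member. Replicate numbers did not pair the arrays: over 15 pairs of lines the correlations of their deviations ran from -0.24 to 0.24. Sequences are RefSeq's for GRCm38.p6. The alternatives were a replicate block, single arrays or clone 2 left out, dim rows left out, 3 scalings, a trended robust prior, fits of the lines compared, weighted arrays, means of lines, and other sets of rows.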

Additional observations from a re-analysis of the deposited data

Results flagged for a closer look

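Prrx1 met a criterion for a closer look in 2 comparisons, since its difference from MEF was not alike in the pluripotent lines. The test of that difference is the comparison between the lines themselves: the clones stood at -2.59 log2 units relative to B6 Blu ES and MPSVII ES at -2.18 (limma, adjusted p = 0.003 and 0.0233). Both rest on 1 array of B6 Blu ES, which had a log2 signal of 6.37, against 9.09 and 8.96 in MEF.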

How the results depend on the processing

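The 7 genes called lower in the clones than in MEF were called in all 24 other settings, and those called in MPSVII ES minus MEF in all 23. In B6 Blu ES minus MEF Twist1 lost its call in 1 of 22 settings and Zeb1 in 3. Over the 6 comparisons, 1066 values of members under other settings kept direction and side of the threshold, 10 lost a call, 2 gained one and 12 turned sign. The sign turned only where the difference in the main fit lay no farther than 0.19 log2 units from 0. In the clones minus MPSVII ES, fits without 1 array gave -0.24 to 0.15 for Snai1 and -0.16 to 0.44 for Vim. Snai1 was 0.0059 there after median centring and 0.048 with line means as samples, and Vim was -0.035 without clone 2 and -0.65 with line means. Fits without 1 array gave -0.010 to 0.21 for Twist1 in the clones minus B6 Blu ES, and -0.0076 to 0.39 for Snai1 and -0.18 to 0.013 for Zeb1 in MPSVII ES minus B6 Blu ES. With line means the ES side held both ES lines, and Acta2, S100a4 and Thy1 turned to -0.11, -0.88 and -0.78 in the clones minus ES. Of 27 named list genes, 19 kept their call in the clones minus MEF throughout.

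Counts of all rows called moved more. In the clones minus MPSVII ES, 173 in the deposited values, the count was 114 with the replicate block, 270 without dim rows, 455 after quantile normalization, 309 after median centring, 412 after the intensity-dependent normalization, 446 with array weights, 0 with line means and 22 with all rows of the table. In the clones minus B6 Blu ES (34) it was 147 without clone 2, 83 without dim rows, 246, 122 and 146 under these scalings, 18 with the compared lines alone and 19 with all rows. The ES lines set against each other (34) gave 85, 186, 87, 110, 6 and 10 without dim rows, under the 3 scalings, with these lines alone and with all rows, and 84 with array weights. Among the 4 clones (1501) it was 784 with the clones alone, 993 with array weights and 927 with all rows. The clones minus MEF (5803) gave 3211 with line means. Leaving out 1 array gave 4052 to 6063 rows for the clones minus MEF, 3198 to 4659 for MPSVII ES minus MEF, 2405 to 3781 for B6 Blu ES minus MEF, 6 to 183 for the clones minus MPSVII ES (6 without MPSVII ES replicate 1, 33 without replicate 2), 20 to 47 for the clones minus B6 Blu ES, 6 to 49 for MPSVII ES minus B6 Blu ES and 487 to 1352 among the clones. The cause was not tested. The replicate block changed no call of a member; comparisons with B6 Blu ES could not be fitted with it because that array has no number. In the clones minus MEF 1297 rows were higher and 4506 lower in the deposited values, and 3333 and 3113, 3472 and 3613, and 2824 and 3818 after quantile, median and intensity-dependent scaling, with medians of all rows at -0.09, 0.11, 0.17 and 0.06. The same splits for MPSVII ES minus MEF were 1117 and 3335, 2418 and 2503, 2043 and 2866, and 2037 and 3142, and for B6 Blu ES minus MEF 549 and 3000, 1846 and 2015, 1109 and 2689, and 1386 and 2621. No member has several rows, so averaging rows could not be run. Snai1 was not tested without dim rows, since its highest line mean lay under the limit of 4.17.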
